A study of Mus musculus with 4 samples.

Results

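Nuclear receptor coregulators are proteins that DNA-bound receptors recruit. The 9 genes described here encode such proteins and are the rows of the deposited read-count table whose symbol is Ncoa1, Ncoa2, Ncoa3, Ncor1, Nrip1, Med1, Crebbp, Ep300 or Smarca4. Each symbol matched 1 row, so 9 of the 23282 features in the table were members. All 9 had enough counts to be tested among 13285 genes. The study used C2C12, a mouse myoblast line labelled as female skeletal muscle, after its cells had become multinucleated myotubes in steroid-free conditions. One group received vehicle and the other 1 µM dexamethasone, a synthetic glucocorticoid, for 2 h, with 2 libraries per group and 4 in all. Both groups shared the line, the differentiation and the steroid deprivation, and differed by the compound. The libraries were made from chromatin-bound RNA, which is rich in unfinished and newly finished transcripts. C2C12 is a single clonal line, and the labels do not say whether the 2 libraries of a group came from separate cultures. The p-values therefore measure the spread between these libraries, which may be technical.

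The glucocorticoid receptor acts on chromatin through such proteins. Ncoa1, Ncoa2 and Ncoa3 encode the steroid receptor coactivator family, whose members dock on hormone-bound receptors through short leucine-rich motifs and bring in the histone acetyltransferases encoded by Crebbp and Ep300. Med1 encodes the Mediator subunit that contacts nuclear receptors and links them to RNA polymerase II. Smarca4 encodes BRG1, an ATPase of the SWI/SNF complexes that open chromatin at receptor sites. Ncor1 encodes a corepressor that carries histone deacetylase activity to receptors, and Nrip1 encodes RIP140, a ligand-dependent corepressor known in muscle as a brake on oxidative metabolism.

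The libraries were checked before any comparison. They held between 19631435 and 88596296 counts. The summed level of 8 myotube markers was between 42034 and 123340 scaled CPM, that is, counts relative to the library total after TMM scaling, and none of the 8 was at 0. Titin (Ttn) made up between 95.03% and 95.78% of that sum. Of the 8 markers, 6 were 1.945 to 7.68 times as high in replicate 1 as in replicate 2, Tnnt3 1.16 and 1.30 times, and Mymk 1.014 and 1.002 times, in the vehicle and dexamethasone groups. Markers of leukocytes, endothelial cells and adipocytes summed to at most 4.0035 scaled CPM per list in every library. Of the leukocyte genes, Ptprc and Adgre1 had at most 3 counts and Csf1r at most 7. Cd68, of the same list, had between 67 and 273 counts (2.92 to 3.87 scaled CPM) and made up most of its sum. Markers of myoblasts summed to 53.1 and 56.9 under vehicle and to 38.3 and 44.3 under dexamethasone, a difference carried by Pax7 (31.97 and 39.03 against 17.9 and 22.9, log2 fold change -0.80, edgeR adjusted p = 0.456); its part in the results was not tested. The neuronal markers Rbfox3, Snap25 and Syt1 summed to 23.3 scaled CPM in vehicle replicate 1 and to between 0.184 and 0.434 in the others. Vehicle replicate 1 stood apart in this respect, and fold changes without it are given with the members and the named list genes. Such fits set both dexamethasone libraries against vehicle replicate 2 alone, so differences between the replicate numbers also enter them. The glucocorticoid-induced gene Fkbp5 passed the test, with a log2 fold change of 5.32 (SE 0.263, edgeR quasi-likelihood test, Benjamini-Hochberg adjusted p = 0.0429), though not with limma-voom (adjusted p = 0.0598). Per1 and Klf9, also glucocorticoid-induced, had log2 fold changes of 2.53 and 1.62 and did not pass in edgeR (adjusted p = 0.117 each). Both were called by DESeq2's Wald test (adjusted p = 1.7e-21 and 2.1e-10). Both were also called with the replicate number as a block in the edgeR fit (adjusted p = 2.2e-05 and 7.4e-05). Neither passed with limma-voom (adjusted p = 0.121 and 0.140).

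The comparison of dexamethasone with vehicle asked whether these coregulator genes changed their own transcription within 2 h of glucocorticoid exposure. None of the 9 passed the threshold in edgeR's quasi-likelihood test with adjustment over all 13285 genes, where 0.0376% of genes were called in either direction. At an unadjusted p under 0.05 the count was also 0 of 9, against 5.78% of all genes, and DESeq2's Wald test called 0 of 9 against 2.17%. The log2 fold changes of the 9 genes ran from -0.14 (Ncoa1) to 0.28 (Nrip1), with a median of -0.03, and the median of all tested genes was -0.00159. Their median absolute log2 fold change was 0.0833, beside 0.135 for all tested genes. The SE of the 9 ran from 0.119 to 0.220, while the median SE of all tested genes was 0.230. These absolute medians are therefore not matched for precision, and the smaller one is not read as a trait of the members.

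Every one of the 9 intervals (95%) for the log2 fold change included 0, and over all 9 the bounds lay between -0.73 and 0.60. These correspond to 0.604 and 1.52 times the vehicle level. A gene left uncalled by edgeR's test on group can have a larger fold change than these, as Per1 and Klf9 did. Without vehicle replicate 1 none of the 9 was called either, and the log2 fold changes were -0.20 for Ncoa2, 0.03 for Ncor1, 0.19 for Med1, 0.08 for Ep300 and -0.14 for Smarca4, with the other 4 given below. Leaving out another library brought Ncoa2 to -0.0101 (without dexamethasone replicate 1), Med1 to 0.0120 and Smarca4 to -0.00938 (both without vehicle replicate 2). The members were measured on between 1043 and 38314 counts per library, so counting error was at most 3.10% of any value.

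**Figure D1:**
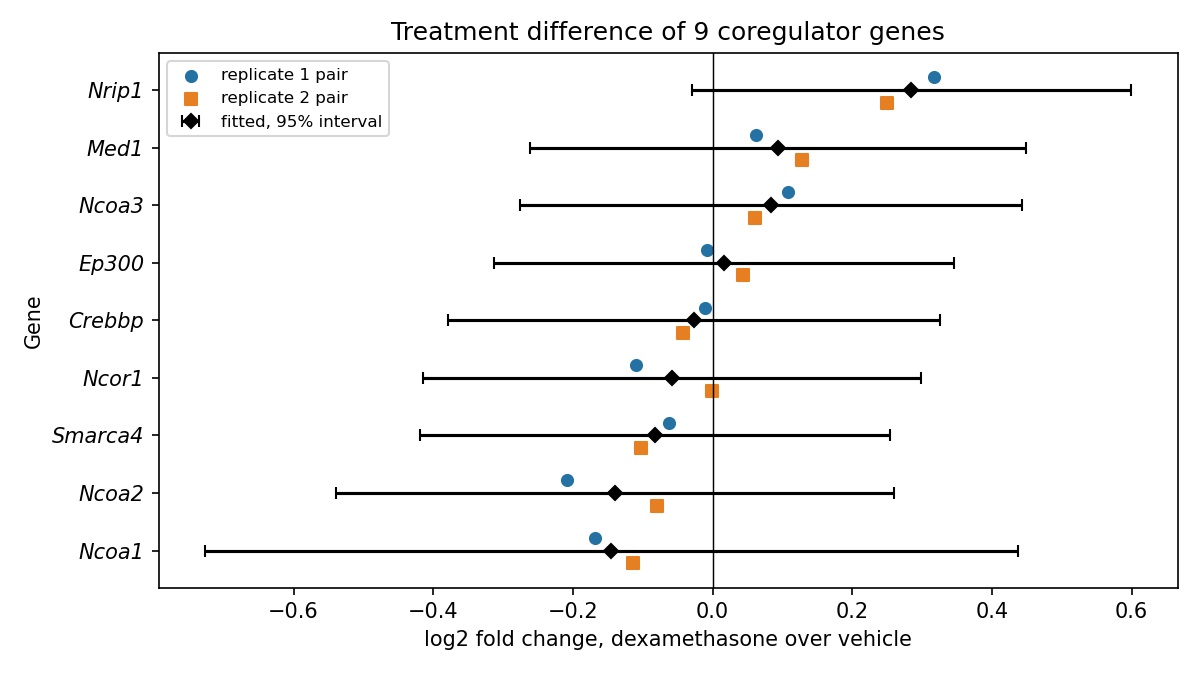
Log2 fold change of dexamethasone over vehicle (horizontal axis) for the 9 coregulator genes (vertical axis): diamonds with bars are the fitted value and its 95% interval over 4 libraries, circles and squares the difference within the replicate 1 and the replicate 2 pair. Every interval crosses 0, and in Nrip1 the pairs lie at 0.32 and 0.25.

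The largest difference was that of Nrip1 (ENSMUSG00000048490), and it was positive. Its vehicle libraries held 86.2 and 84.2 scaled CPM and its dexamethasone libraries 107 and 100.2. The means were 85.2 ± 1.40 and 104 ± 5.11 (SD, n = 2 each). The treated libraries were thus both higher than either control, and Nrip1 was the 1 member of 9 whose groups did not overlap, where 27.9% of all tested genes did not overlap in one direction or the other and 15.0% were higher. The fitted log2 fold change was 0.28 (SE 0.119, 95% interval -0.03 to 0.60), or 1.22-fold, with an unadjusted p of 0.0669 and an adjusted p of 0.937 in edgeR's quasi-likelihood test. The difference was 0.32 within the replicate 1 pair and 0.25 within the replicate 2 pair. It remained between 0.24 and 0.33 when any one library was left out, and was 0.30 without vehicle replicate 1. With the replicate number as a block in the edgeR fit, Nrip1 was called (0.28, adjusted p = 0.0247), where 12.7% of all tested genes were called and 6.87% were called higher; the labels do not say that the numbers pair the libraries. Over all alternatives tried, its adjusted p ran from 0.0247 to 1. A log2 fold change below that of Nrip1 was found in 87.9% of tested genes, and an absolute one below it in 74.1%.

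Nrip1 has 2 start sites in the RefSeq promoter table (GRCm38.p6), and the bases before each are printed because it was the member whose groups stood apart. The windows are chr16:76373828-76374077 and chr16:76373050-76373299, both on the minus strand, and hold 4 and 32 CpG dinucleotides in 250 bases. For the other corepressor gene, Ncor1, the window shown is chr11:62438516-62438765 on the minus strand, with 2 CpG. It was chosen because it holds the hexamer marked in capitals. The outer Ncor1 window, chr11:62457333-62457582, has 34 CpG, does not hold the hexamer and is not printed. Capitals mark the hexamer AGAACA or its reverse complement TGTTCT, which is one arm of the palindrome bound by the glucocorticoid receptor (AGAACA, any 3 bases, TGTTCT).
Nrip1, first start: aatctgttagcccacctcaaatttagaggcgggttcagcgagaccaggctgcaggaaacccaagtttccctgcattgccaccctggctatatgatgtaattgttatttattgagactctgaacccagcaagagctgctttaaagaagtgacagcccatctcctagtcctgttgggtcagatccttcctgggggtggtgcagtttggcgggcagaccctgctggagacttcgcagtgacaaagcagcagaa
Nrip1, second start: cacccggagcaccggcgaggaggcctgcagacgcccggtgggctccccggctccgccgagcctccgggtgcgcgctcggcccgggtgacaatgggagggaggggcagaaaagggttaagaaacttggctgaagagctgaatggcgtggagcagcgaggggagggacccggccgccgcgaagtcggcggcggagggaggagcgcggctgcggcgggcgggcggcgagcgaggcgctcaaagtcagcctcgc
Ncor1, inner start: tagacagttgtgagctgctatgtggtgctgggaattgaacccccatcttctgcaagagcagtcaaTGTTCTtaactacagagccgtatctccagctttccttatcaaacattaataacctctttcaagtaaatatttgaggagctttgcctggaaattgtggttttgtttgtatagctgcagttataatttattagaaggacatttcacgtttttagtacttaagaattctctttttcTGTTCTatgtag

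The hexamer was searched on both strands in windows of 300 bases, 250 before and 50 after a start, and its matches include any arm of a full palindrome. Windows were found for 7 of the 9 members, 9 windows in all. Neither Nrip1 window held the hexamer. It stood in 2 of the 9 windows, and 19.0% of the 32851 windows of all genes held it. In Ncor1 it was at 2 places before the inner start, and in Ncoa1 at 1 place not wholly before the start. The full palindrome was in none of the 9 and in 0.00913% of all windows. A match says only that the letters are there.

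Ncor1 (ENSMUSG00000018501), the broadly acting corepressor, had no separation of its groups. Its level was 418 and 369.6 scaled CPM under vehicle and 387 and 369.4 under dexamethasone. The log2 fold change was -0.06 (SE 0.135, 95% interval -0.41 to 0.30). Within pairs it differed by -0.11 and -0.00105. The annotation (GENCODE M21) places 2 genes of the table, Pigl and Ttc19, over Ncor1 on the opposite strand, with log2 fold changes of 0.00084 and -0.15 and adjusted p of 0.9999 each in edgeR. Whether reads were counted by strand is not given in the sources used here.

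A ratio of counts within a library is free of scaling between libraries. The count of Nrip1 over that of Ncor1 was 0.206 and 0.228 under vehicle, against 0.277 and 0.271 under dexamethasone. The higher values were both in the treated group, and the means were 0.217 ± 0.0153 and 0.274 ± 0.00429 (SD, n = 2 each). With 2 libraries against 2, an exact two-sided permutation test cannot give a p below 0.333, so no test was made of it.

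**Figure D2:**
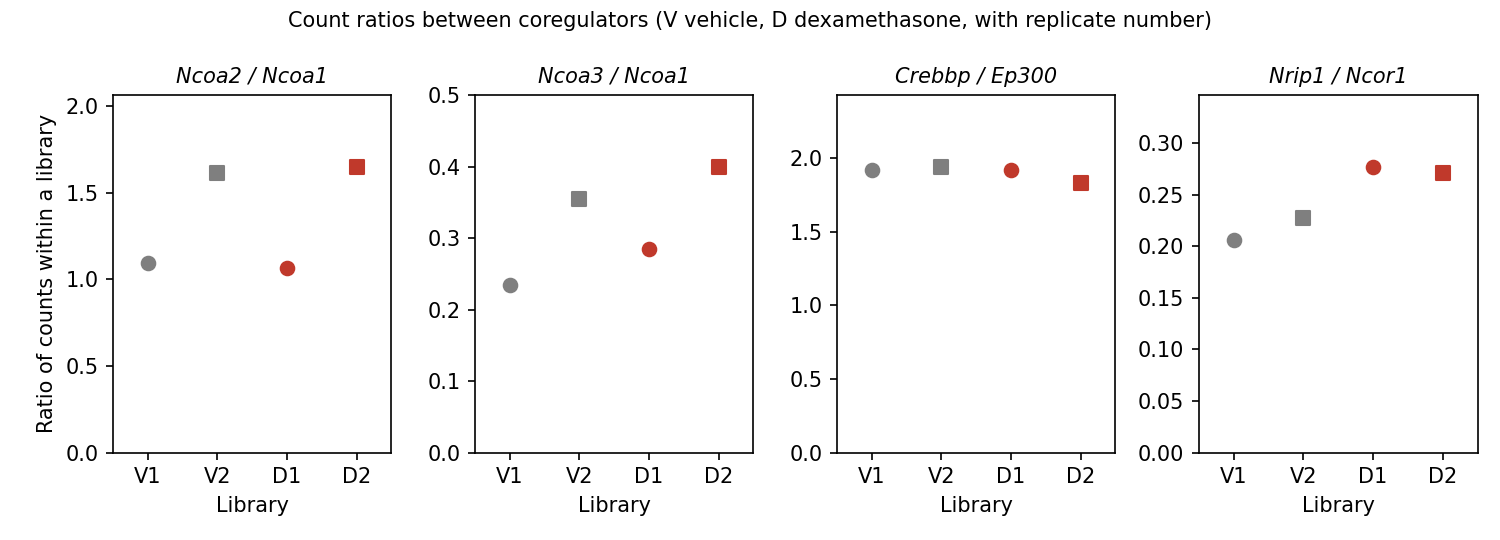
Ratio of raw counts between pairs of coregulator genes (vertical axis, from 0) in each library (V vehicle, D dexamethasone, with the replicate number). Nrip1 over Ncor1 is higher in both dexamethasone libraries (0.277 and 0.271), while Ncoa2 over Ncoa1 is higher in both replicate 2 libraries (1.61 and 1.65).

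The 3 steroid receptor coactivator genes showed no common direction. Ncoa1 (ENSMUSG00000020647) had 238 and 177 scaled CPM under vehicle and 212 and 164 under dexamethasone. The groups overlapped, and the replicate 1 library was the higher one in both. Its log2 fold change was -0.14 (SE 0.220, 95% interval -0.73 to 0.44), the widest interval of the 9. Within the replicate pairs Ncoa1 differed by -0.17 and -0.11. It was at 0.09 without vehicle replicate 1 and at 0.03 without dexamethasone replicate 2. Both of these fits take in its difference between replicate numbers, so their sign is not that of the treatment alone.

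Ncoa2 (ENSMUSG00000005886), also called GRIP1 and known as a partner of the glucocorticoid receptor in both activation and repression, had 261 and 286 scaled CPM under vehicle and 226 and 270.4 under dexamethasone. These groups overlapped too, and here the replicate 2 library was the higher one in each. The log2 fold change was -0.14 (SE 0.151, 95% interval -0.54 to 0.26), with -0.21 and -0.08 within the pairs. Ncoa3 (ENSMUSG00000027678) was the least abundant member by scaled CPM, with 55.95 and 62.8 under vehicle and 60.3 and 65.5 under dexamethasone. Its 4 values interleaved by group, with a log2 fold change of 0.08 (SE 0.136, 95% interval -0.28 to 0.44) that became 0.00389 without vehicle replicate 1. Sulf2, which the annotation places over part of Ncoa3 on the opposite strand, went from 28.7 and 32.5 scaled CPM to 85.9 and 91.2, a log2 fold change of 1.53 (SE 0.139) that did not pass in edgeR (adjusted p = 0.117). Whether reads from Sulf2 entered the Ncoa3 count was not tested.

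The acetyltransferase genes had the smallest differences. Crebbp (ENSMUSG00000022521) encodes CBP and had the highest counts of the 9 genes, with 455 and 423 scaled CPM under vehicle and 451 and 410.3 under dexamethasone. The groups overlapped. Its log2 fold change was -0.03 (SE 0.133, 95% interval -0.38 to 0.33), and it was 0.03 without vehicle replicate 1. Ep300 (ENSMUSG00000055024), its close relative, had 237 and 217 scaled CPM under vehicle and 235 and 224 under dexamethasone. The dexamethasone values fell between the vehicle values, and the log2 fold change was 0.02 (SE 0.124, 95% interval -0.31 to 0.35), turning to -0.02 with no scaling other than library size. The count of Crebbp over that of Ep300 was 1.92 and 1.94 under vehicle and 1.92 and 1.83 under dexamethasone. This was the steadiest of the ratios computed.

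The Mediator and SWI/SNF subunits also overlapped between groups. Med1 (ENSMUSG00000018160) had 117 and 103 scaled CPM under vehicle and 122 and 112 under dexamethasone. The lower dexamethasone value lay between the vehicle values, and the log2 fold change was 0.09 (SE 0.134, 95% interval -0.26 to 0.45). It differed by 0.06 within the replicate 1 pair and by 0.13 within the replicate 2 pair. Smarca4 (ENSMUSG00000032187) had 257 and 281 scaled CPM under vehicle and 246 and 262 under dexamethasone. Each dexamethasone library was below the vehicle library of its number, by 0.06 and 0.10 on the log2 scale, and the groups overlapped. The fitted value was -0.08 (SE 0.127, 95% interval -0.42 to 0.25).

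**Figure D3:**
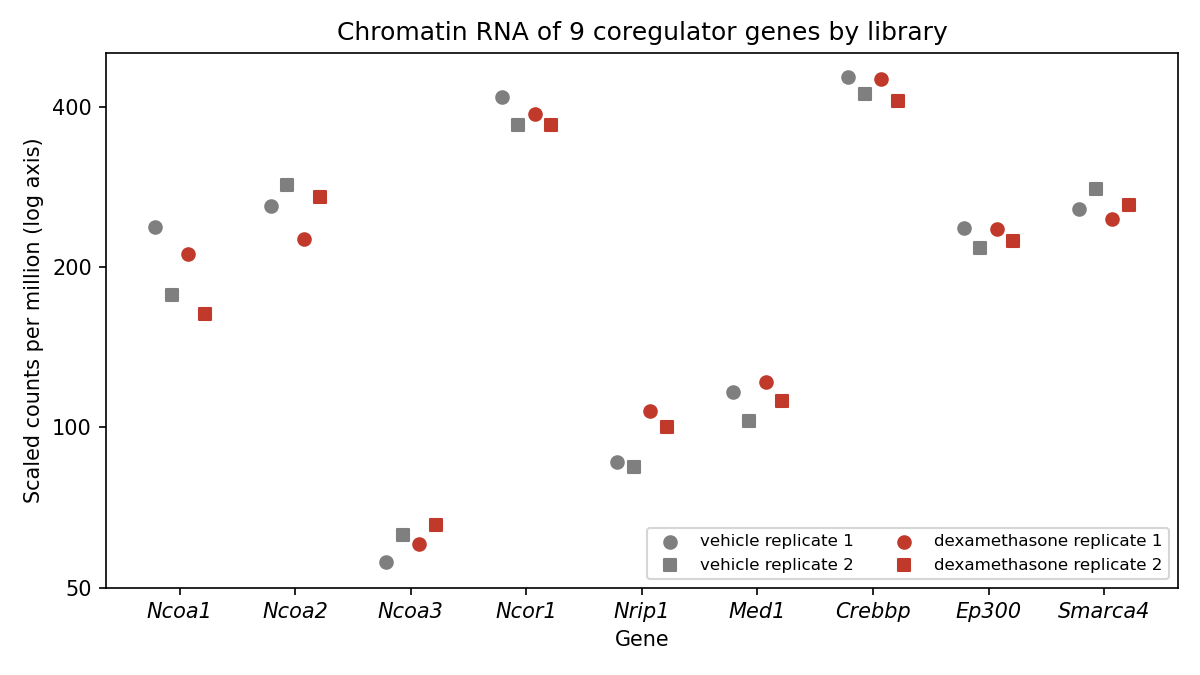
Scaled CPM (vertical log axis) of the 9 coregulator genes (horizontal axis) in each of the 4 libraries: grey is vehicle, red dexamethasone, circles replicate 1 and squares replicate 2. Nrip1 is the gene in which both red points (107 and 100.2) lie above both grey points (86.2 and 84.2).

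The receptor gene itself, Nr3c1, had a larger fitted difference than any member, without a test between them. Its mean was 209 ± 40.8 scaled CPM under vehicle and 103 ± 26.6 under dexamethasone (SD, n = 2 each). The log2 fold change of -1.03 did not pass in edgeR (adjusted p = 0.430). It was called with the replicate block (adjusted p = 0.000236) and by DESeq2 (adjusted p = 0.0174), and its adjusted p over all alternatives ran from 0.000236 to 0.890. Without vehicle replicate 1 the value for Nr3c1 was -0.81. The 95% interval of Nr3c1 ran from -1.69 to -0.36, and that of Nrip1, the member farthest from 0, from -0.03 to 0.60.

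The level of each gene was then set against its length, as scaled CPM per kb of annotated exon, averaged over all 4 libraries as mean ± SD. Smarca4 was highest, at 40.3 ± 2.24, and its lowest library (38.0) lay above the highest library of the next gene. Crebbp (32.1 ± 1.61) and Ncor1 (30.1 ± 1.79) followed and overlapped each other. Below them stood Ncoa1 at 23.0 ± 3.93, apart from its neighbours on either side.

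Ncoa2 (16.7 ± 1.62) and Ep300 (16.0 ± 0.650) could not be told apart by their libraries. Med1 had 12.9 ± 0.927, and Nrip1 (8.25 ± 0.975) and Ncoa3 (7.74 ± 0.512) shared the bottom with overlapping libraries. Even Ncoa3 exceeded 64.1% of tested genes on this scale, and Smarca4 exceeded 95.1%. On this scale all 9 genes stood above the median tested gene.

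The order depends on what was counted, since exons make up 3.73% of the length of Ncoa1 and 21.4% of that of Ep300. Per kb from first to last base of the gene, Ep300 was highest at 3.42 ± 0.139 and Crebbp followed at 3.28 ± 0.164. Smarca4, Med1 and Ncor1 came next at between 2.72 and 2.97, and neighbours in this order overlapped. The 3 coactivator genes and Nrip1 lay between 0.758 (Ncoa3) and 1.11 (Ncoa2), and the lowest library of Ncor1 (2.60) stood above the highest of Ncoa2 (1.22). On this scale Ncoa1 and Ncoa3 stood below the median tested gene, exceeding 47.8% and 44.65% of tested genes. Whether reads in introns were counted is not given in the sources used here, so both scales are shown and neither order is taken as settled.

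Differences between the replicate numbers were larger than those between treatments in 4 of the 9 genes, counting a gene when its smaller replicate difference exceeded its larger treatment difference within a pair. The differences of replicate 1 from replicate 2 had the same sign in both groups in every one of the 9. The shares of all tested genes that meet these conditions were not computed. Replicate differences correlated between the groups over all tested genes (r = 0.734), so neither count is read as particular to the members. Ncoa1 was higher in replicate 1 by 0.43 under vehicle and 0.37 under dexamethasone on the log2 scale. Ncoa2 was lower in replicate 1 by the values -0.13 and -0.26, and Ncoa3 by -0.17 and -0.12.

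The coactivator genes therefore split by library in opposite ways. The count of Ncoa2 over that of Ncoa1 was 1.096 and 1.07 in the replicate 1 libraries and 1.61 and 1.65 in the replicate 2 libraries. For Ncoa3 over Ncoa1 the ratio was 0.235 and 0.285 in replicate 1 and 0.355 and 0.400 in replicate 2. Of the myotube markers, 6 of 8 were higher in the same replicate 1 libraries by 1.945 to 7.68 times, while Mymk was at 1.014 and 1.002 times. Their part in the result was not tested, and fewer myotube nuclei and less RNA per nucleus cannot be told apart in bulk libraries. Over all tested genes the median absolute difference between the replicates was 0.311 under vehicle and 0.269 under dexamethasone, so among the members Ncoa1 alone exceeded it in both groups.

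**Figure D4:**
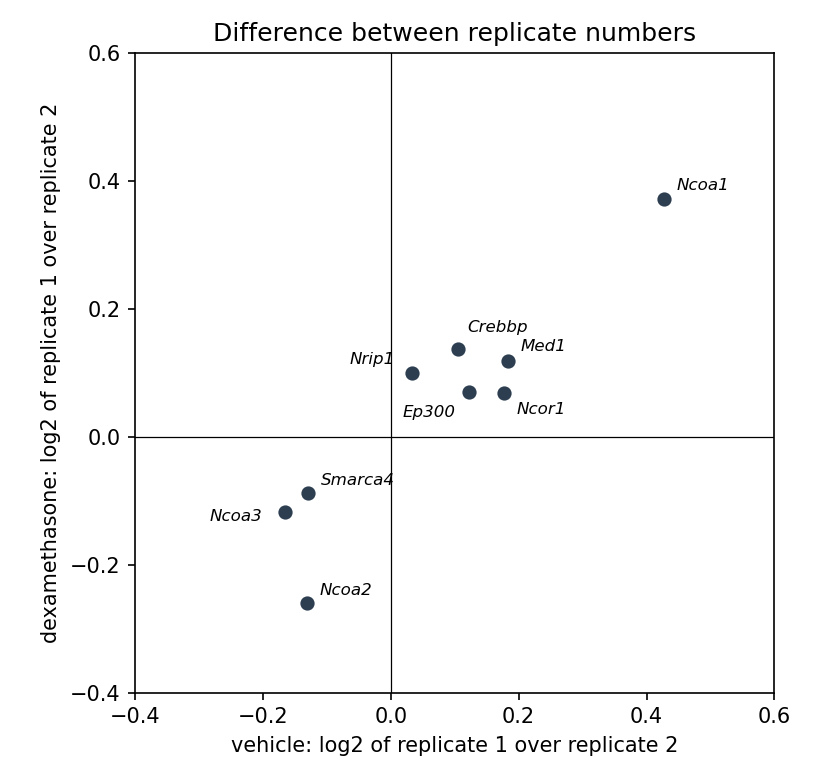
Log2 ratio of replicate 1 over replicate 2 within the vehicle group (horizontal axis) and within the dexamethasone group (vertical axis), with 1 point for each coregulator gene. In every gene both values share a sign, with Ncoa1 farthest out (0.43 and 0.37) and Ncoa2, Ncoa3 and Smarca4 below 0 on both axes.

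Genes whose values over the 4 libraries lay nearest to a member were found by the Euclidean distance between log2 CPM profiles centred on their mean. For Nrip1 these were Rraga (distance 0.0214), Arhgap24 (0.0295) and Fkbp14 (0.0349), with log2 fold changes of 0.28, 0.31 and 0.26. For Ncoa1 they were Acsl3 (0.0228), the clock gene Per3 (0.0241) and Mapre2 (0.0382). With only 4 libraries such likeness is common: 83 genes lay within a distance of 0.1 of Nrip1 and 93 within that of Ncoa1. Among the members themselves the closest profiles were those of Crebbp and Ep300 (0.0662), and the farthest apart were those of Ncoa1 and Ncoa2 (0.596).

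The other genes of these complexes were examined in 4 lists, described by counts and medians. Of 95 genes listed, 92 were tested and 0 passed in edgeR over all genes, where 0.0376% did. At an unadjusted p under 0.05 there were 4, 2 higher and 2 lower, against 5.78% of all tested genes. DESeq2's Wald test also called 0 of them, against 2.17% of all tested genes. The libraries of 7 genes did not overlap in the higher direction, against 15.0% of all tested genes. Those of 16 did not in the lower, against 12.9%. The lower ones were 6 of 19 coactivators, 3 of 19 corepressors, 1 of 31 Mediator genes and 6 of 23 SWI/SNF genes. The higher ones were 0, 2, 3 and 2 in the same order. No list was tested as a set. With the replicate block 9 of the 92 were called (Ppargc1b, Kat2b, Tbl1xr1, Hdac4, Hdac7, Hdac5, Rcor1, Smarca2 and Arid1a), where 12.7% of all tested genes were.

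Of 20 further coactivators, 19 were tested, 4 with values above 0 and 15 below, at a median log2 fold change of -0.07. The lowest was Ppargc1b, a coactivator of mitochondrial genes, with 163.8 and 164.1 scaled CPM under vehicle and 112 and 109.8 under dexamethasone. The groups did not overlap, and the fitted difference was -0.57 (SE 0.113, edgeR adjusted p = 0.306). Kat2b, a histone acetyltransferase, was next at -0.47 (SE 0.186), with 43.7 and 42.9 scaled CPM under vehicle and 26.9 and 35.7 under dexamethasone. Ncoa7 followed at -0.21. The highest values were those of Ppargc1a at 0.29 (SE 0.673), Cited2 at 0.21 and Ddx5 at 0.06, and in all 3 the groups overlapped. Without vehicle replicate 1, Ppargc1b was at -0.57, Kat2b at -0.45, Ncoa7 at -0.20, Ppargc1a at 1.19, Cited2 at 0.40 and Ddx5 at 0.18. Kat2b was at -0.27 without dexamethasone replicate 1.

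All 19 further corepressor genes were tested, with 8 above 0 and 11 below and a median of -0.09. Tbl1xr1, a subunit of the complexes that Ncor1 forms, was highest. It had 446 and 476 scaled CPM under vehicle and 628 and 641 under dexamethasone, which did not overlap, and a log2 fold change of 0.46 (SE 0.127, edgeR adjusted p = 0.524). The class II deacetylase gene Hdac4 was at 0.32 (SE 0.170), also without overlap, and Hdac7 at 0.31 (SE 0.603) with overlap. At the other end stood Hdac5 (-0.41, SE 0.356), Rcor1 (-0.26, SE 0.169) and Sin3a (-0.23, SE 0.127), of which Sin3a alone did not overlap. Without vehicle replicate 1, Tbl1xr1 was at 0.41, Hdac4 at 0.17, Hdac7 at -0.22, Hdac5 at -0.73, Rcor1 at -0.40 and Sin3a at -0.26. Without vehicle replicate 2 the median of the corepressors was 0.0263, Hdac4 was at 0.49 and Rcor1 at -0.10.

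Mediator, the complex of Med1, had 31 of 32 further genes tested, 22 above 0 and 9 below, with a median of 0.07. No member of the list passed an unadjusted p of 0.05. Cdk19, a kinase of the Mediator kinase module, was lowest at -0.32 (SE 0.147), with 74.2 and 62.1 scaled CPM under vehicle against 53.4 and 55.7. Med25 and Med29 followed at -0.20 and -0.13. Med12l (0.47, SE 0.510), Med30 (0.24, SE 0.289) and Med18 (0.21, SE 0.257) were highest, and the groups of all 3 overlapped. Without vehicle replicate 1, Cdk19 was at -0.19, Med25 at -0.53, Med29 at -0.27, Med12l at 0.90, Med30 at 0.59 and Med18 at 0.15. The median of the Mediator genes was 0.0207 without dexamethasone replicate 1 and 0.0358 with scaling by library size only, which moved the median of all genes to -0.04.

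Of the further SWI/SNF genes 23 of 24 were tested, 8 above 0 and 15 below, at a median of -0.04. The 2 genes farthest from 0 encode alternative or partner subunits of BRG1. Smarca2, the gene of the other SWI/SNF ATPase, BRM, had 33.4 and 28.5 scaled CPM under vehicle and 48.1 and 39.99 under dexamethasone. Its libraries did not overlap, and its log2 fold change was 0.51 (SE 0.172, edgeR adjusted p = 0.741). Arid1a, the gene of a DNA-binding subunit, had 209 and 220.1 scaled CPM under vehicle and 156 and 155 under dexamethasone. It did not overlap either and was at -0.46 (SE 0.117, edgeR adjusted p = 0.460). Smarca4 itself stood at -0.08. The next highest in the list were Brd9 (0.14) and Smarce1 (0.11), and the next lowest Bcl7c (-0.44, SE 0.342) and Bcl7a (-0.25, SE 0.165). Without vehicle replicate 1, Smarca2 was at 0.63, Arid1a at -0.50, Brd9 at 0.17, Smarce1 at 0.23, Bcl7c at -0.70 and Bcl7a at -0.21, and the median of the SWI/SNF genes was -0.13. That median was 0.0155 without dexamethasone replicate 1, and Bcl7c was at -0.0681 without vehicle replicate 2.

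**Figure D5:**
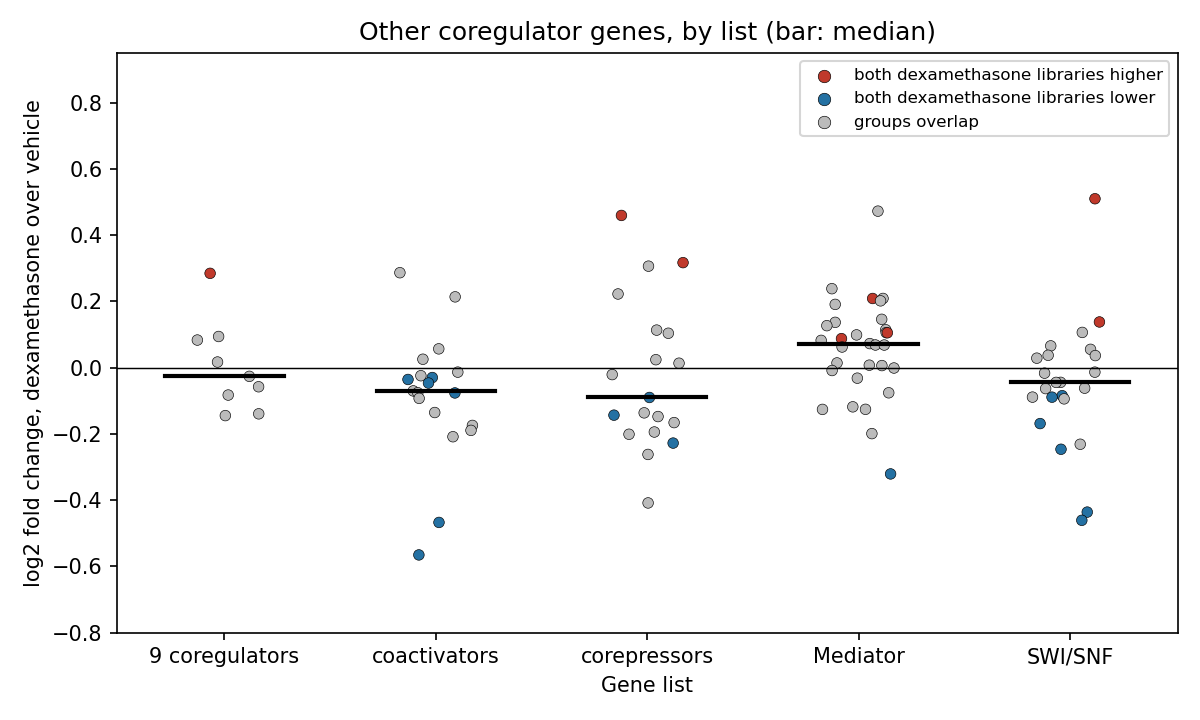
Log2 fold change of dexamethasone over vehicle (vertical axis) for the 9 coregulator genes and the tested genes of 4 further lists (horizontal axis), with a bar at each median. Colour marks genes whose 2 dexamethasone libraries both lie above (red) or below (blue) both vehicle libraries, and values stay between -0.57 (Ppargc1b) and 0.51 (Smarca2).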

How the data were processed

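The table that the authors deposited gives unnormalised counts for each gene, with its symbol, MGI and Ensembl identifiers. The submitters' processing notes name mm9, TopHat2 2.0.13, SAMtools 1.1, HTSeq 0.6.1 and DESeq2 1.18.1, without roles. The labels' protocols name both a total RNA and an mRNA stranded kit. Of 23333 rows, 51 repeated a gene with its counts and were used once. Genes were filtered with filterByExpr (minimum count 10, minimum total 15) and tested with edgeR 4.0.16 in R 4.3.3 (TMM, quasi-likelihood test on group, two-sided, Benjamini-Hochberg over all genes, threshold 0.05). The fit had 2 residual and 2.56 prior degrees of freedom. Intervals are 95% and use that spread. Log2 CPM per library has a prior count of 2. GENCODE M21 (GRCm38) gave lengths and overlaps for genes matched by Ensembl identifier (99.5% of those tested). Its build differs from mm9, the build that the submitters name. The only coordinates given are those of promoter windows of Nrip1 and Ncor1, on GRCm38.p6. No pair of libraries resembled one library deposited again (chi-square per degree of freedom 47.4 to 237, over genes with 20 counts or more in the pair). Alternatives were DESeq2 1.42.0, limma-voom (limma 3.58.1), other scalings and filters, a replicate block and leaving out each library. Scripts were tested on simulated counts with a biological coefficient of variation of 0.05 and no replicate difference. The fit of these data on group gave 0.245, so that test does not cover the spread in the main fit. With the replicate block the coefficient was 0.0552. Named genes are the members, in each list the 3 highest and 3 lowest and any called, the 3 nearest profiles, Fkbp5, Per1, Klf9 and Nr3c1; overlapping genes and Pax7 were named after their values were seen. Members and lists were chosen with earlier results of these data known. Protein sequences were not used here. The annotation behind the counts, and its strand and intron settings, are not given in the sources used here.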

Additional observations from a re-analysis of the deposited data

How the results depend on the processing

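Across all genes, 5 were called higher and 0 lower (225 lower at an unadjusted p under 0.05). DESeq2's Wald test called 235 and 53, testing all genes that had any count gave 23 higher, limma-voom 0 (771 at an unadjusted p under 0.05), and fits without one library 4 to 84 higher and 0 to 109 lower, most without vehicle replicate 2, where the lone library left in a group is taken to vary like the other group. The cause was not tested. The labels do not say that a replicate number marks a shared day, and with 2 pairs the pairing cannot be settled from the data, though replicate differences correlated between groups (r = 0.734 across genes, which are not independent). A fit with a replicate block called 913 higher and 768 lower, 12.7% of those tested. Among the 9 coregulators, 1 was then called higher, Nrip1 (0.28, adjusted p 0.0247, range over its alternatives 0.0247 to 1). In the lists the block called 2 coactivators lower (Ppargc1b, Kat2b), 3 corepressors higher (Tbl1xr1, Hdac4, Hdac7) and 2 lower (Hdac5, Rcor1), and 1 SWI/SNF gene higher (Smarca2) and 1 lower (Arid1a). No other alternative called a member or a list gene. With library size only, Ep300 was at -0.0199, and 3 members did not overlap between groups (Nrip1 and Med1 higher, Ncor1 lower). The share of all genes without overlap was not computed for that scaling, and with TMM it was 27.9%. The count of 3 is therefore not read as a result about the members.

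Fits without one library gave signs of both kinds for Ncoa1 (-0.34 to 0.085), Ncor1 (-0.14 to 0.0343), Crebbp (-0.0908 to 0.0403) and Ep300 (-0.0361 to 0.0803), and for the list genes Hdac5 (-0.80 to 0.0263), Hdac7 (-0.42 to 1.16), Ppargc1a (-0.52 to 1.19), Ddx5 (-0.0734 to 0.18), Ncoa7 (-0.48 to 0.0185), Med12l (-0.0504 to 0.90), Med25 (-0.58 to 0.26), Med29 (-0.34 to 0.0554), Med30 (-0.0451 to 0.59) and Smarce1 (-0.00120 to 0.23). Such a fit leaves the replicate numbers unequal between groups, so the replicate difference enters it along with the treatment. Within the replicate pairs the sign differed in Ep300 (-0.00855 and 0.0440) and Ncoa7 (-0.48 and 0.0203). The other genes just named had the same sign in both pairs, as did 68.1% of all tested genes. In the fits that left out a library, the median ran from -0.0361 to 0.0343 over the 9 members and from -0.0858 to -0.0305 over the coactivators. It ran from -0.0942 to 0.0263 over the corepressors, from 0.0207 to 0.10 over Mediator and from -0.13 to 0.0155 over SWI/SNF. Per kb from first to last base, vehicle levels were 0.903 for Ncoa1, 1.16 for Ncoa2, 0.736 for Ncoa3, 2.77 for Ncor1, 0.986 for Nrip1, 2.67 for Med1, 3.31 for Crebbp, 3.40 for Ep300 and 3.05 for Smarca4, since this length is greater than the exonic one.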
